A study of Oryza sativa Japonica Group with 5 samples.

Results

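On 9 of the 12 rice chromosomes, 56 loci were nearly without transcript in wild type leaves and clearly transcribed in leaves of the mutant pls4. They are the loci with Os identifiers on chromosomes 1 to 5 and 7 to 10 whose FPKM (fragments counted per locus, scaled to locus length and library size) was at most 0.5 in each of 3 wild type libraries and at least 5 in both pls4 libraries. A block of 20 listed loci on chromosome 2, from Os02g0568000 to Os02g0572000, was left out. The 56 came from 28358 listed loci that the search covered, of 36475 in the files. Since measured values chose them, their levels and fold changes are a description of these 5 libraries.

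The libraries hold RNA of Japonica rice leaves, 3 of wild type plants and 2 of pls4 plants, and the series asks about the response of pls4 to a fungal sheath disease. The labels name mesophyll as the cell type. They call the pls4 plants "knockdown" and the wild type plants "Non knockdown", and give no altered gene, cultivar, age or inoculation. Nothing says whether replicates came from separate plants, so error values measure only the spread between libraries, which may be technical. RNA was sequenced from bulk leaf, where more cells of a type and more RNA per cell cannot be told apart.

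Any plant tissue leaves a large part of its annotated genes untranscribed. As background, a silent locus may lack the transcription factors or inducing signals that it needs, or may be held off by DNA methylation and repressive histone marks. Neither chromatin nor DNA was measured here.

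Silence in wild type was common and mostly shared with pls4. Of the listed loci on the 9 chromosomes, 11529 had an FPKM of at most 0.5 in every wild type library, and 92.5% of these were also at or under 0.5 in both pls4 libraries. Only 213 reached an FPKM of 1 in both pls4 libraries, and the 56 loci at 5 or more were 0.486% of the silent ones. The same thresholds with the genotypes exchanged gave 135 loci that were on in wild type and silent in pls4. Outside the search, the thresholds were met by 32 loci of chromosomes 6, 11 and 12 and by 26 loci with XLOC identifiers.

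The wild type values were close to the lowest the files list. Of the 56 loci, 14 were listed at 0 in all 3 wild type libraries, 13 in 2 of them, 8 in 1 and 21 in none. The median wild type FPKM was 0.02, 0.02 and 0.04 in replicates 1, 2 and 3. Read counts were not used here and depth is unknown, so a listed 0 gives no upper limit. In pls4 the mean FPKM of the 56 ran from 5.56 to 175, and the median of the 56 was 10.1 in replicate 1 and 9.61 in replicate 2. The median of the mean over 10106 other loci of these chromosomes with at least 5 in both pls4 libraries was 19.0. Thus 28 of the 56 stayed under a mean of 10, and 4 reached 50. Added up, the 56 came to 4.95, 4.95 and 5.93 FPKM in wild type and to 991 and 1248 in pls4, or 0.135% and 0.167% of the listed total of those pls4 files.

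The log2 fold change fitted with limma, on values of FPKM + 1 and positive where pls4 was higher, had a median of 3.43 and ran from 2.43 to 7.06. It understates the change of loci this low in wild type. All 56 were called higher in pls4 at an adjusted p under 0.05, against 33.4% of all 19637 tested loci, which follows from how they were chosen. The median over all tested loci was 0.15.

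**Figure D1:**
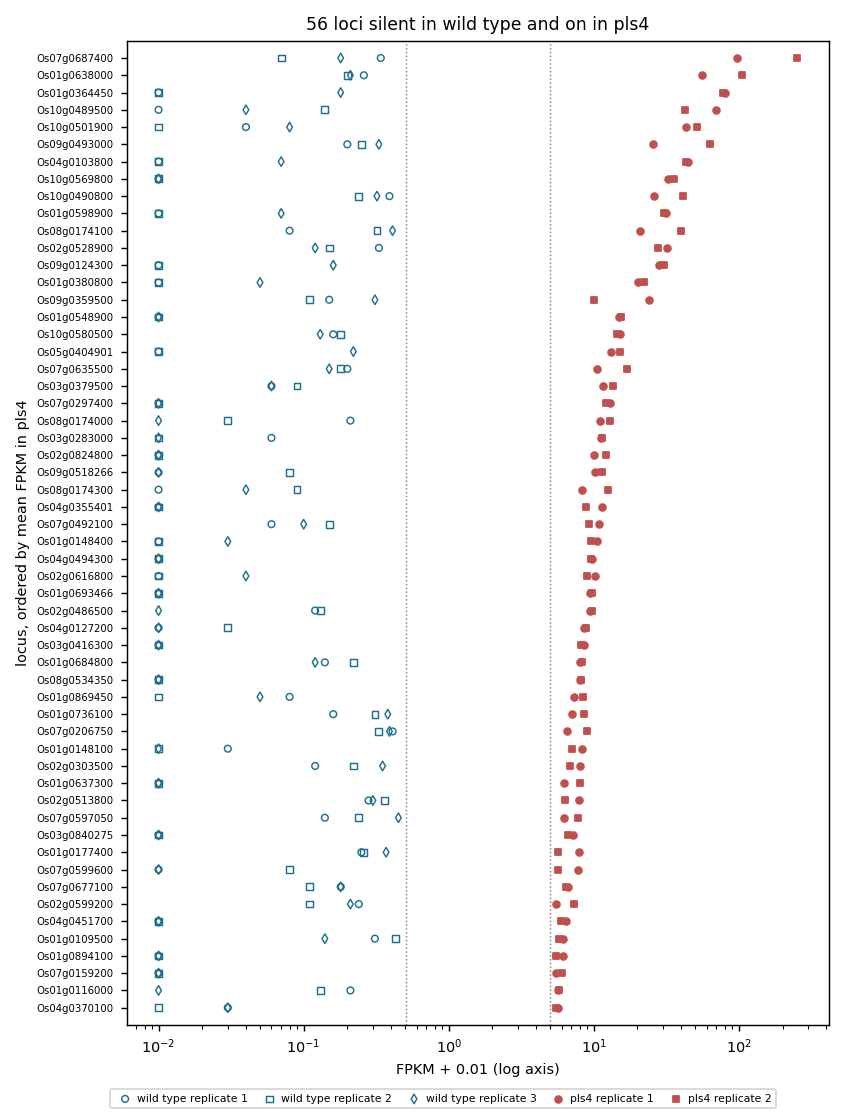
FPKM plus 0.01 on a log axis for the 56 loci, ordered by mean FPKM in pls4, with open symbols for the 3 wild type libraries and filled symbols for the 2 pls4 libraries; dotted lines mark the thresholds of 0.5 and 5. Wild type points spread from 0 (drawn at 0.01) to 0.44, while the pls4 points begin at 5.44 and reach 253.

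The most abundant member in pls4 was Os07g0687400. It stood at 0.33, 0.06 and 0.17 FPKM in the wild type libraries and at 96.5 and 253 in pls4 replicates 1 and 2 (log2 fold change 7.06 ± 0.36, SE). Its pls4 libraries differed more than those of any other of the 56. Os01g0638000 had wild type values of 0.25, 0.19 and 0.20 and pls4 values of 55.3 and 104 (5.99 ± 0.24). Os01g0364450 was listed at 0, 0 and 0.17 in wild type and at 80.5 and 78.1 in pls4 (6.25 ± 0.12). The pls4 libraries were thus almost 2-fold apart at Os01g0638000 and nearly equal at Os01g0364450, loci of similar mean level.

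Next came Os10g0489500, at 0, 0.13 and 0.03 FPKM in wild type and 69.1 and 42.6 in pls4. Os10g0501900 stood at 0.03, 0 and 0.07 against 42.9 and 51.4. These loci of chromosome 10 had their higher pls4 value in different libraries. Os09g0493000 went from 0.19, 0.24 and 0.32 to 25.5 and 63.5, and Os04g0103800 from 0, 0 and 0.06 to 44.3 and 43.1. Os10g0569800 was the most abundant of the 14 loci listed at 0 throughout wild type, with 32.4 and 36.0 FPKM in pls4. The 10 highest were completed by Os10g0490800, at 0.38, 0.23 and 0.31 against 26.2 and 41.1, and by Os01g0598900, at 0, 0 and 0.06 against 31.6 and 30.5.

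At the other end were the 5 members of lowest mean. Os04g0370100 had 5.64 and 5.47 FPKM in pls4, Os01g0116000 5.66 and 5.76, and Os07g0159200 5.52 and 5.98. Os01g0894100 stood at 6.10 and 5.44 and Os01g0109500 at 6.09 and 5.71. In each of these 5 the pls4 libraries lay within 1.25-fold of each other. The floor cut through a continuous range of levels: just outside it, Os04g0121800 had 4.99 and 5.19 in pls4, Os05g0399800 5.53 and 4.94, and Os03g0563400 4.79 and 5.54. Just inside it, beside Os01g0894100 and Os04g0370100, was Os02g0599200 with 5.45 and 7.24.

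The wild type ceiling also had loci close to it on either side. Just inside it, the highest wild type value was 0.44 at Os07g0597050, 0.42 at Os01g0109500 and 0.40 at Os07g0206750. Just outside, it was 0.51 at Os04g0556400, 0.52 at Os09g0518200 and 0.54 at Os02g0247600. Os09g0518200, left out by a single wild type value, had 240 and 311 FPKM in pls4, above every member.

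The files pair no identifier with a name, and none of the 56 identifiers is in the RefSeq gene table (assembly ASM3414082v1). Names recalled for 2 members fell at the right relative place in that table. BC1L2 (Os03g0416300) belongs to the COBRA-like family, proteins of the cell surface that act in cellulose deposition. It was listed at 0 in every wild type library and at 8.52 and 8.09 FPKM in pls4 (log2 fold change 3.22 ± 0.11). PRX112 (Os07g0677100) is a class III peroxidase, one of the secreted haem enzymes that use hydrogen peroxide on cell wall phenolics and in defence. It stood at 0.17, 0.10 and 0.17 in wild type and at 6.68 and 6.42 in pls4 (2.72 ± 0.11). At both genes the pls4 libraries were nearly equal.

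The form of the identifiers gave a further description. Identifier numbers that are not multiples of 100 occurred in 10 of the 56 loci (17.9%). The share was 15.6% among the 135 loci of the exchanged pattern, 17.5% among all listed loci of the 9 chromosomes, 30.3% among those silent in wild type and 4.50% among those with at least 5 in both pls4 libraries. The 56 loci were therefore nearer to the listed loci as a whole than to the transcribed ones in this respect.

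The pls4 libraries agreed within 1.25-fold at 41 of the 56 loci (73.2%) and within 2-fold at all but 3. Among the 10106 other loci with at least 5 in both pls4 libraries, 86.1% agreed within 1.25-fold and 0.435% differed by over 2-fold. The 3 exceptions among the 56 were Os07g0687400 and Os09g0493000, both higher in pls4 replicate 2, and Os09g0359500, with 24.1 FPKM in replicate 1 and 10.1 in replicate 2 after wild type values of 0.14, 0.10 and 0.30. Of all 56, 31 were higher in replicate 2 and 25 in replicate 1. Across the loci the log2 values of the libraries had a Pearson correlation of 0.938 (Spearman 0.923, n = 56) and across the other loci 0.987 (Spearman 0.981, n = 10106). These points share the same libraries and the floor of 5.

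Most differences over 1.5-fold between the pls4 libraries were at members above 0.1 in a wild type library and over 20 FPKM in pls4. For the 29 loci at or under 0.1 FPKM in every wild type library, the median difference between the pls4 libraries was 1.10-fold, and 1 locus differed by over 1.5-fold. For the 27 loci above 0.1 in a wild type library, the median was 1.22-fold, and 8 differed by over 1.5-fold, including all 3 beyond 2-fold. The first value was like that of the other loci (1.09-fold). By level, 6 of the 14 members with a mean over 20 FPKM in pls4 differed by over 1.5-fold, and 3 of the 42 at or under 20. Those 6 were all among the 9 members that were over 20 in pls4 and above 0.1 in a wild type library. None of the 5 others over 20 differed so far. At or under 20 the wild type value made little difference, with 2 of 18 members above 0.1 and 1 of 24 at or under 0.1. Both splits were set after the values were seen, the rule used both values, and the differences were not tested.

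**Figure D2:**
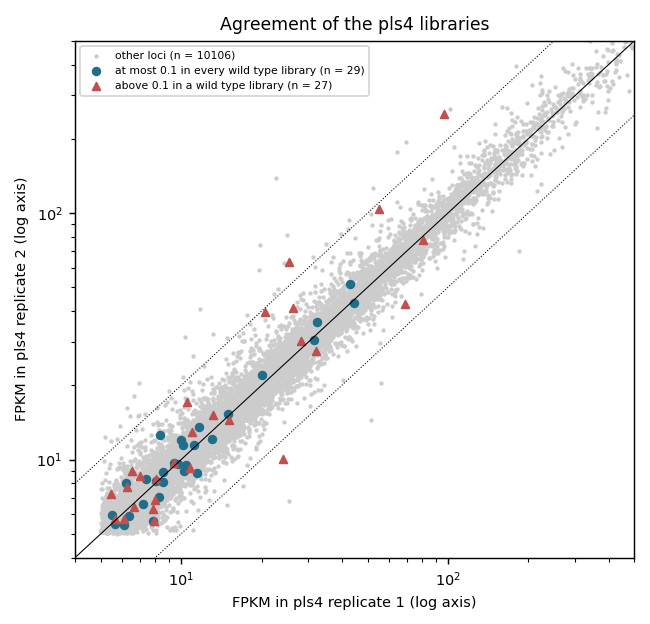
FPKM in pls4 replicate 1 against pls4 replicate 2, both on log axes, for members at most 0.1 (circles, n = 29) or above 0.1 (triangles, n = 27) in wild type and for other loci (grey, n = 10106); the solid line is equality and the dotted lines are 2-fold apart. All 29 circles lie between the dotted lines, and the 3 members beyond them are triangles. The axes are cut, so the most abundant of the other loci are not drawn.

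Levels were also read in a library that took no part in the choice. Chosen on the wild type libraries and pls4 replicate 1 alone, 62 loci met the thresholds, and 56 of them (90.3%) had at least 5 FPKM in replicate 2. The lowest value there was 2.38, at Os08g0489300. Chosen without pls4 replicate 1 instead, 71 loci met them, and 78.9% reached 5 in replicate 1, with a lowest value of 1.35 at Os01g0615050. No locus of either choice was at or under 0.5 in the library not used. Without wild type replicate 1, 2 or 3 the thresholds chose 58, 60 or 59 loci, and the value in the library left out was at most 0.5 at 56 of them each time. For each library left out, the 56 are the members themselves, because the full rule is then met. The check therefore shows only how many further loci each library removed, and at what values. No such share was taken for other loci. One locus stood out in this check: Os01g0712600 was at 13.6, 0 and 0 in wild type and at 51.3 and 14.5 in pls4.

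The 56 loci lay on all 9 chromosomes but unevenly. Chromosome 1 held 16 and chromosome 7 held 9, or 3.22 and 3.30 per 1000 listed loci, while chromosome 3 held 4 (0.936 per 1000) and chromosome 5 held 1 (0.350 per 1000). The other chromosomes ranged from 1.64 to 2.53 per 1000. The exchanged pattern, on in wild type and silent in pls4, was distributed otherwise. It was more frequent on 8 of the 9 chromosomes, at 4.76 per 1000 in all against 1.98. On chromosome 7 the order was the reverse, with 2 such loci against 9. The single member on chromosome 5, Os05g0404901, compares with 13 loci of the exchanged pattern there. With so few loci per chromosome, and neighbouring loci not independent, no test was made of these differences.

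**Figure D3:**
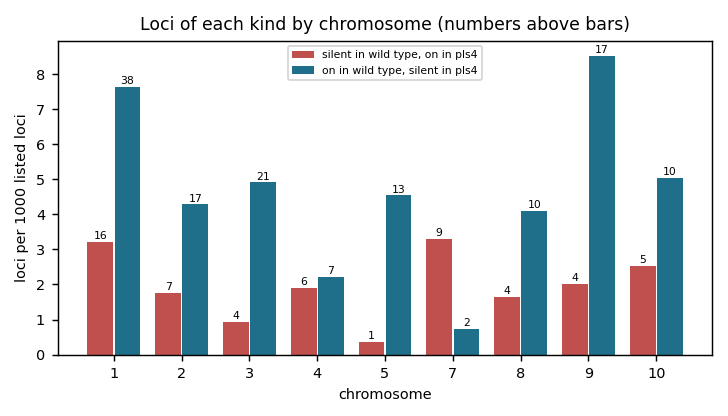
Loci per 1000 listed loci on each chromosome searched, for the 56 loci on in pls4 alone and the 135 loci on in wild type alone, with the number of loci above each bar. Chromosome 7 is the only one of the 9 where the first kind outnumbers the second (9 against 2).

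Most members had no other member within 5 listed loci. Position was taken as order of identifiers, since the files give no coordinates. The median distance to the nearest other member of the same chromosome was 113 listed loci, and 7 of the 56 (12.5%) had another within 5 loci. Members were 1.98 per 1000 listed loci, and the share of other loci this near to a member was not taken. Only 3 were direct neighbours of another member, in a run on chromosome 8. There Os08g0174000 had 0.20, 0.02 and 0 FPKM in wild type and 10.98 and 12.9 in pls4. Os08g0174100 had 0.07, 0.31 and 0.40 against 20.7 and 39.8, and Os08g0174300 had 0, 0.08 and 0.03 against 8.32 and 12.6. All 3 had their higher value in pls4 replicate 2. The run ended at DTH8 (Os08g0174500), a flowering-time gene for a subunit of a CCAAT-binding factor. DTH8 stood at 6.12, 5.94 and 6.37 in wild type and 6.94 and 7.14 in pls4 and was not called (limma, log2 fold change 0.17 ± 0.09, adjusted p = 0.168). The remaining close members were Os01g0148100 with Os01g0148400, and Os01g0637300 with Os01g0638000.

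The loci directly beside the members, whose own values the choice did not use although the libraries and the contrast are the same, were called more often than tested loci as a whole. The 56 members had 107 direct neighbours that are not members, of which 63 passed the filter of 1 FPKM in 2 libraries. Of these 63, 53 (84.1%) were called, 35 higher and 18 lower in pls4, against 52.0% of all tested loci (33.4% higher and 18.5% lower). All tested loci here include chromosomes 6, 11 and 12, XLOC loci and the members. The share for the chromosomes searched alone was not taken. With a change of at least 2-fold also required, 33 of the 63 (52.4%) were called, 20 higher and 13 lower, against 14.3% (7.11% higher and 7.21% lower). Of the 20 higher, 8 were at or under 0.5 FPKM in every wild type library. Of the 13 lower, 5 were so in both pls4 libraries. These passed the filter only through the genotype where they were high, which nearly fixed their direction. Such loci were not counted among all tested loci. The share of neighbours called fell with distance. Of tested loci at a distance of 2 it was 67.3%, at 3 to 5 it was 56.7% and at 6 to 10 it was 56.4%. For changes of at least 2-fold the shares were 42.3%, 22.8% and 16.1%. Without pls4 replicate 2 the share of direct neighbours called was 69.8% and that of all tested loci 33.9%.

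Neighbours of the 135 loci of the exchanged pattern were also called often, with 62.5% called and 40.0% called at 2-fold or more, but more of them were lower (51) than higher (24). In level, 32.7% of the 107 neighbours of the 56 were at or under 0.5 FPKM in all 5 libraries, against 37.6% of all listed loci. At 5 or more in all 5 libraries were 24.3%, against 32.1% of all listed loci. No test was made of these shares. The files give no coordinates or strand, and the library kit named in the labels does not mark strand, so reads from overlapping or antisense neighbours could not be told apart. Between members and neighbours whose identifiers are both multiples of 100, 84.1% of 44 tested neighbours were called. The share among all tested loci with such identifiers was not taken, and the form of an identifier gives neither overlap nor strand.

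**Figure D4:**
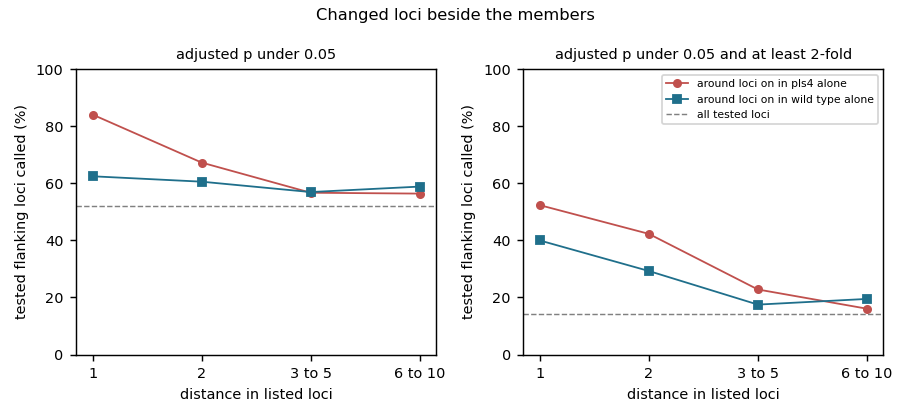
Percent of tested loci called at an adjusted p under 0.05 (left) and called with at least 2-fold change (right) at 1, 2, 3 to 5 and 6 to 10 listed loci from the 56 loci on in pls4 alone (circles) and the 135 loci on in wild type alone (squares); the dashed line is the share of all tested loci (52.0% left, 14.3% right). Circles fall from 84.1% to 56.4% on the left and from 52.4% to 16.1% on the right.

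On the log2(FPKM + 1) scale, 3 neighbours had the largest rises, an order that changes with the pseudocount. Os09g0518200, beside the member Os09g0518266, was at 0, 0.10 and 0.52 FPKM in wild type and 240 and 311 in pls4 (limma, log2 fold change 7.85 ± 0.20, adjusted p = 2.58e-07). The member beside it had 0, 0.07 and 0 against 10.1 and 11.5. Os07g0158900, beside Os07g0159200, rose from 3.32, 1.93 and 3.18 to 26.8 and 28.1 (limma, 2.92 ± 0.18, adjusted p = 1.62e-05). Os01g0869400, beside Os01g0869450, was listed at 0 in all wild type libraries and at 4.55 and 6.74 in pls4 (limma, 2.71 ± 0.16, adjusted p = 1.57e-05), just under the floor.

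Of the 20 neighbours called at least 2-fold higher, 8 were at or under 0.5 FPKM in every wild type library, beside 7 of the members. These 8 passed the filter only through the pls4 libraries, which nearly fixed their direction. Among all tested loci 1397 were called at least 2-fold higher, and how many of those were silent in wild type was not counted. On the 9 chromosomes 213 loci, members included, were silent in wild type and at least 1 FPKM in both pls4 libraries. Around Os04g0370100, Os04g0369600 had 3.43 and 5.06 and Os04g0370300 had 2.43 and 1.40 in pls4, both after 0 throughout wild type. Beside Os07g0687400, Os07g0687300 had 0, 0 and 0.04 in wild type and 2.37 and 8.75 in pls4. Beside Os09g0493000, Os09g0492900 had 0 in wild type and 2.12 and 4.74 in pls4. In these last pairs neighbour and member were both higher in pls4 replicate 2, but this was not general. Os01g0177400 had 7.88 and 5.62 in pls4, while Os01g0177500 beside it had 1.65 and 3.27, and Os04g0369600 and Os04g0370300 had their higher values in different libraries. The peroxidase gene PRX112 also had called loci on either side. Os07g0676900 rose from 1.19, 1.27 and 0.95 to 3.93 and 6.84 (limma, 1.54 ± 0.20, adjusted p = 0.000766) and Os07g0677200 from 2.89, 2.02 and 2.42 to 10.2 and 21.7 (limma, 2.22 ± 0.28, adjusted p = 0.000647).

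Other neighbours went the opposite way. Os10g0489650, beside the abundant member Os10g0489500, was at 36.9, 55.4 and 53.4 FPKM in wild type and listed at 0 in both pls4 libraries. Os02g0599400, beside Os02g0599200, was at 18.9, 16.2 and 16.6 in wild type and at 0 in both pls4 libraries. These were the 2 direct neighbours with the fully exchanged pattern, so that at each place 1 locus was on in each genotype. Os01g0148500, beside Os01g0148400, fell from 17.2, 17.5 and 17.6 to 0.43 and 0.62 (limma, log2 fold change -3.60 ± 0.10, adjusted p = 4.38e-07). The chitinase gene Cht5 (Os04g0494100), beside Os04g0494300, fell from 1.23, 1.65 and 1.83 to 0.15 and 0.10 (limma, -1.18 ± 0.14, adjusted p = 0.000558), while Os04g0494300 went from 0 throughout to 9.74 and 9.57. BC1 (Os03g0416200), the COBRA-like gene named for brittle culm mutants, lay 2 listed loci from BC1L2. It rose from 0.63, 1.12 and 1.21 to 4.75 and 2.09 (limma, 1.10 ± 0.27, adjusted p = 0.0124), and Os03g0416250 between them was listed at 0 in all libraries. The call of BC1 rests on pls4 replicate 1, and without that library it had an adjusted p of 0.0706 (limma, log2 fold change 0.65).

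Some genes known to act in silencing were called slightly higher in pls4. Of 20 listed genes for DNA methylation, small RNA pathways and histone methylation, 13 were found at the same relative place in the RefSeq table and 10 of these were tested. MET1-2 (Os07g0182900), a maintenance DNA methyltransferase, had 1.16, 0.86 and 1.03 FPKM in wild type and 1.91 and 1.72 in pls4 (limma, log2 fold change 0.48 ± 0.13, adjusted p = 0.0157). EZ1 (Os03g0307800), a histone methyltransferase of the Polycomb group, had 11.6, 10.1 and 9.74 against 14.5 and 13.7 (limma, 0.40 ± 0.10, adjusted p = 0.0146). These 2 of 10 were called higher and none lower. Among the 7 listed genes whose place could not be checked, 6 were tested and 2 more were called higher, so that 4 of 16 were higher over the whole list, against 33.4% of all tested loci. Numbers this small do not set the list apart. Neither the call of MET1-2 nor that of EZ1 remained with the replicate number as a block or without pls4 replicate 1. The call of EZ1 was the less stable, and remained only with a pseudocount of 0.1 or 0.5 and without wild type replicate 1. The block fit also left out wild type replicate 3. Without that library and with no block, MET1-2 was called and EZ1 was not. With median ratio scaling, 1 of the 10 was called higher and 2 lower, and the share of all tested loci called higher was 21.7%.

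Markers of leaf cell types moved between the same groups. The 5 mesophyll genes summed to between 22410 and 29687 FPKM in wild type and to between 10271 and 12895 in pls4. Most of these sums came from Lhcb1, RBCS2 and RBCS4, which could not be checked in the RefSeq table. The 2 that could be checked, rca and PORA, were called lower. In wild type rca stood at 746 to 890 and PORA at 340 to 418, against 129 to 196 and 70.4 to 71.7 in pls4. The 4 genes of vascular tissue and secondary walls (BC1 and the cellulose synthase genes CESA4, CESA7 and CESA9) were all called higher, BC1 with the exception given above, and summed to 2.40 to 4.19 in wild type, 23.7 in pls4 replicate 1 and 11.3 in pls4 replicate 2. The 3 genes of dividing cells, 1 called higher and 1 lower, summed to 24.1 to 25.4 and 28.4 to 28.6. The root gene Lsi1 stood at 11.4 to 14.6 and 16.6 to 20.1 and was called higher (limma, log2 fold change 0.42 ± 0.14, adjusted p = 0.037). The seed storage gene GLUA2 stood at 3.60 to 4.88 and 3.89 to 4.79 and was not called. None of these markers was at 0 in a library. Their part in the values of the 56 loci was not tested.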

How the data were processed

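RNA from 5 leaf libraries was analysed, 3 of wild type and 2 of pls4. The authors deposited FPKM, 1 file per library, per the file headers. TopHat2 version 2.1.1 and build IRGSP-1.0 are named in the submitters' processing notes; the sources used here do not give the counting tool, annotation, filters or scaling. Listed values summed to between 736527 and 758853 per library, and read depth is unknown.

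Loci were chosen by thresholds and described. A locus was tested where 2 or more libraries reached an FPKM of 1 (19637 loci). The test was limma (3.58.1, R 4.3.3) with genotype as the only term and a trended variance. It used log2 values with a pseudocount of 1, and Benjamini-Hochberg adjusted p under 0.05 was called. The fit was tested on simulated data, with changes placed only in loci of at least 5 FPKM. Far fewer loci changed there than were called here, so that test does not cover loci near 0 or changes this widespread. Fits without a library, and with a replicate block, kept the same loci. The block fit left out wild type replicate 3. Neighbours were taken in identifier order. Symbols were recalled pairs, kept where the relative place in the RefSeq table differed by at most 0.05 of the chromosome, except for the mesophyll markers, of which 3 of 5 symbols are not in the table.

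The members and lists were chosen with earlier results of these data known. Named are the 10 highest and 5 lowest members by mean pls4 FPKM, members over 2-fold apart between pls4 libraries or next to another member, members with a symbol, the 3 loci on either side of each threshold, and the 3 neighbours with the largest called change in each direction; other named loci were chosen after their values were seen.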

Additional observations from a re-analysis of the deposited data

How the results depend on the processing

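The number of loci silent in wild type and on in pls4 depends on the thresholds. It was 56 as reported, 29 with a ceiling of 0.1, 25 with a floor of 10 and 124 with a floor of 2. It was 76 with a ceiling of 1 or with genotype means, 55 with median ratio scaling, and 58 to 71 without a library. The exchanged pattern gave 135 loci, 75 with a floor of 10 and 240 with a floor of 2. The median log2 fold change of the 56 was 3.43, and 6.33 with a pseudocount of 0.1. Of the loci chosen without pls4 replicate 1 with a floor of 10, 92.6% reached it in that library, against 78.9% for the floor of 5. With direct neighbours alone counted, 3 members lay beside another. Called direct neighbours were 84.1% of those tested, and 49.5% with no filter, where 22.6% of all loci were called. The share was 64.7% over the nearest 5 loci, 67.3%, 56.7% and 56.4% at distances of 2, 3 to 5 and 6 to 10, and 62.5% beside loci of the exchanged pattern; those alternatives, except the nearest 5, were chosen after seeing the data. Without a library it ranged from 69.8% to 85.7%, and all called loci from 6653 (without pls4 replicate 2) to 10259, against 10208 with all.

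With median ratio scaling the share of calls that were higher went from 64.3% to 46.8% for all loci and from 66.0% to 58.3% for direct neighbours, and the median change of all tested loci from 0.15 to 0.00, so small changes have no secure direction. The replicate numbers 1 and 2 occur in both genotypes, but deviations of same-numbered libraries had correlations of -0.09 and -0.14, and no label pairs them. With the replicate block 7278 loci and 74.6% of tested direct neighbours were called. That fit also left out wild type replicate 3, and without that library and with no block the values were 7949 and 73.0%. Over 24 named members and the 6 direct neighbours with the largest called changes, 330 values under 11 alternative fits held no change of sign and no lost call. The thresholds that chose the members, and the choice of neighbours by size of change, nearly fixed that outcome, so it is no check of them. Size was compared for members only, and 69 of their values moved by about a standard error or more. Neighbours were judged by sign and call alone, though their sizes also moved. With a pseudocount of 0.1, Os01g0869400 went from 2.71 to 5.82 and Os10g0489650 from -5.61 to -8.90. Other neighbours did lose calls: called direct neighbours went from 53 to 44 without pls4 replicate 2, and BC1, 2 loci from BC1L2, was not called without pls4 replicate 1. With a pseudocount of 0.5, Os07g0158900 (3.11) fell behind Os01g0869400 (3.60), Os07g0687300 (3.33) and Os04g0369600 (3.22) in log2 fold change.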

Other observations

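Among loci that missed the thresholds by 1 value, Os07g0217600 (chosen after its values were seen) stood at 0.14, 0.33 and 0.65 FPKM in wild type and at 105 and 119 in pls4, a level that only Os07g0687400 of the 56 members exceeded. At the direct neighbour Os03g0283100 of the member Os03g0283000, wild type values averaged 152 FPKM and pls4 values 965 (limma, log2 fold change 2.66, adjusted p = 5.04e-07), while the member itself went from 0.05, 0 and 0 to 11.2 and 11.5.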
